A study of Arabidopsis thaliana with 18 samples.

Results

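RDUF1 (AT3G46620), ATL2 (AT3G16720), CMPG2 (AT5G64660) and PUB17 (AT1G29340) encode ubiquitin ligases, and EXO70B1 (AT5G58430) encodes a subunit of the exocyst. The 5 transcripts were chosen by name and locus, and each was read by 1 probe set of the Affymetrix ATH1 array, out of 22746 probe sets tested. The platform annotation and the study's tables together gave 14142 genes a probe set of their own, which is not every gene on the array. Their levels were measured in light-grown Arabidopsis cell suspension cultures (ACSC) of the Columbia ecotype, on 18 arrays in 6 groups of 3 biological replicates. The treated cultures received 0.5 μM Rose Bengal (RB), 500 μM H2O2 (HP), 0.5 μM MV or 0.5 μM Indigo Carmine (IC). MV is Methylene Violet in the methods and Methyl Violet in the labels. RB, MV and IC are dyes that produce singlet oxygen in the light. The labels place untreated cultures in a control of RB and HP and another control of MV and IC, 3 arrays each, and the titles match each control array to treated arrays by number. They give growth at 50 μE m-2 s-1 and 2 incubations, 30 min under high light and 1 h of darkness, and do not assign the arrays to either. The study itself describes a chemical treatment of 30 min and places the RB and H2O2 responses under low to medium light. A suspension culture is 1 line of dividing cells and holds none of the tissue organization of a plant.

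Ubiquitin ligases select the proteins to which ubiquitin is attached, and a chain of ubiquitin commonly sends the protein to the 26S proteasome. RING and U-box domains are related folds by which a ligase binds the conjugating enzyme (E2) that carries ubiquitin, and plants use many ligases of both kinds to switch immune and stress signalling on and off. The exocyst is a complex of several subunits that tethers secretory vesicles to the plasma membrane before they fuse. Its EXO70 subunit, which binds membrane lipids, is encoded in plants by a large gene family.

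Signals are the deposited RMA values on a log2 scale and lay between 2.43 and 13.69 over all arrays, with array medians of 4.92 to 5.15. Differences are therefore log2 differences of signal, levels of different probe sets are not compared, and cell number and RNA per cell cannot be told apart. Each comparison was fitted with limma over the 22746 probe sets, with p-values adjusted over all of them by the Benjamini–Hochberg method, and a transcript was called at an adjusted p under 0.05. A second fit held the array number within each set of treated and control arrays as a block, and its adjusted p is given for each of the 5 transcripts where it changed a call. RDUF1, ATL2, CMPG2 and EXO70B1 are singlet oxygen markers that the study chose on these RB arrays, and PUB17 was named there among transcripts linked to cell death, so the RB values are no independent evidence for them. The RB and HP comparisons share their 3 control arrays, and those arrays spread widely, with root mean square deviations of 0.302 to 0.358 from their group mean over all probe sets, against 0.192 to 0.312 on the arrays of the other groups. Of the cell type markers, RCA, which encodes the activase of Rubisco in green plastids, had signals of 10.24 to 11.56, and the root hair gene EXPA7 and the guard cell gene FAMA had 3.25 to 3.83 and 2.92 to 3.59, near the low end of the scale. These 3 were the only genes of the marker lists with a named probe set.

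RDUF1 has a RING finger and a domain of unknown function and takes part in responses to abscisic acid and drought. Its signal was 12.12, 11.88 and 11.59 on RB1, RB2 and RB3, against 9.57, 9.98 and 9.63 on control 1, 2 and 3. All 3 RB arrays stood far above the controls. RDUF1 was 2.14 higher on the log2 scale after RB, or 4.40-fold (standard error 0.257, 95% interval 1.59 to 2.68, n = 3 arrays per group, adjusted p = 0.000228). After HP it was 11.18, 10.75 and 10.72 on HP1, HP2 and HP3, which lay between the RB and the control arrays without touching either group. This was 1.16 above the control, or 2.23-fold (standard error 0.257, adjusted p = 0.0486, and 0.0065 with the block). This call for HP ended when any array of the comparison other than control 3 was left out. The log2 difference was 1.08 without control 1 (adjusted p = 0.181), 1.29 without control 2 (0.0646), 1.01 without HP1 (0.206), 1.22 without HP2 (0.0951) and 1.24 without HP3 (0.117). RB exceeded HP by 0.98 (95% interval 0.43 to 1.52, adjusted p = 0.0552), and with the block this difference passed (adjusted p = 0.00799). The study marks some of its singlet oxygen markers as also raised by H2O2. RDUF1 is not so marked there, although it was called after HP here.

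ATL2 is a RING-H2 ligase with a membrane anchor, known for a fast response to chitin and other elicitors and for its toxicity when expressed in yeast. Its signal was 8.91, 8.87 and 8.68 on RB1, RB2 and RB3, against 7.70, 7.41 and 6.68 on control 1, 2 and 3. The RB arrays lay close together and above the controls, which were spread over 1 unit (SD 0.124 in RB and 0.526 in the control). ATL2 was 1.55 higher after RB, or 2.94-fold (standard error 0.239, 95% interval 1.05 to 2.06, adjusted p = 0.00173). Fitted to only the arrays compared, the adjusted p was 0.062. After HP it was 7.74, 7.62 and 7.27 on HP1, HP2 and HP3, and these overlapped the control arrays. The difference of 0.28 did not pass (95% interval -0.23 to 0.79, adjusted p = 0.652), and without control 3, the lowest array, it was -0.01. ATL2 stood 1.28 higher in RB than in HP (95% interval 0.77 to 1.78, adjusted p = 0.00735). Without HP3 this difference was 1.14 (adjusted p = 0.0514).

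CMPG2 is a U-box ligase of the family of parsley CMPG1 and tobacco ACRE74, genes known for their rapid response to elicitors. Its signal was 8.76, 8.42 and 8.53 on RB1, RB2 and RB3, against 6.38, 6.58 and 6.47 on control 1, 2 and 3. The control arrays lay within 0.2 of each other (SD 0.096), and every RB array was above them. CMPG2 was 2.09 higher after RB, or 4.27-fold (standard error 0.252, 95% interval 1.56 to 2.63, adjusted p = 0.000228). After HP it was 7.92, 7.55 and 7.27 on HP1, HP2 and HP3, between the RB and the control arrays and apart from both. The difference of 1.10 from the control, or 2.15-fold, did not pass (standard error 0.252, adjusted p = 0.0599), but passed with the block (adjusted p = 0.00327) and without control 3 (adjusted p = 0.0461). The study marks CMPG2 as also raised by H2O2, so the result without the block differs from the study's. RB exceeded HP by 0.99 (95% interval 0.46 to 1.53, adjusted p = 0.0467), and this call ended without RB1 (0.90, adjusted p = 0.12), RB2 (1.07, 0.0867), RB3 (1.01, 0.131), HP2 (0.98, 0.135) or HP3 (0.84, 0.224).

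PUB17 is a U-box ligase with armadillo repeats, and its tobacco counterpart ACRE276 is required for hypersensitive cell death and resistance. Its signal was 9.47, 8.98 and 9.19 on RB1, RB2 and RB3, against 8.49, 8.81 and 8.52 on control 1, 2 and 3. All RB arrays were above all control arrays, but RB2 and control 2 were only 0.18 apart. The difference of 0.61 after RB, or 1.53-fold, did not pass (standard error 0.207, 95% interval 0.17 to 1.05, adjusted p = 0.146), and passed with the block (adjusted p = 0.025). The study lists PUB17 among the transcripts raised by RB, so here too the result without the block differs. After HP the signal was 9.28, 9.08 and 9.17 on HP1, HP2 and HP3, again above all controls. The difference of 0.57 did not pass (95% interval 0.13 to 1.01, adjusted p = 0.271, and 0.067 with the block). RB and HP arrays overlapped for PUB17, with a difference of 0.04 (95% interval -0.40 to 0.48, adjusted p = 0.966). An excess of RB over HP of the size measured for the other 4 transcripts lies outside this interval. The intervals of RDUF1, CMPG2 and EXO70B1 overlap it, however, and the difference between transcripts was not tested.

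EXO70B1 is the exocyst subunit linked to autophagy-related transport and to immunity, where the TIR-NBS protein TN2 monitors it. Its signal was 8.25, 7.78 and 7.96 on RB1, RB2 and RB3, against 6.39, 6.42 and 6.44 on control 1, 2 and 3. The control arrays lay within 0.06 of each other (SD 0.0281), and the RB arrays were all more than 1 unit above them. EXO70B1 was 1.58 higher after RB, or 2.99-fold (standard error 0.143, 95% interval 1.28 to 1.88, adjusted p = 2.98e-05). It held the 7th smallest p of the 22746 probe sets in this comparison. After HP the signal was 7.39, 7.24 and 7.29 on HP1, HP2 and HP3, between the RB and the control arrays and apart from both. EXO70B1 rose by 0.89 after HP, or 1.86-fold (95% interval 0.59 to 1.20, adjusted p = 0.00491). Fitted to only the arrays compared, the adjusted p was 0.0815. RB exceeded HP by 0.69 (95% interval 0.39 to 0.99, adjusted p = 0.014), and this call ended without RB1 (0.56, adjusted p = 0.0549), HP2 (0.66, 0.0643) or HP3 (0.68, 0.0657).

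**Figure D1:**
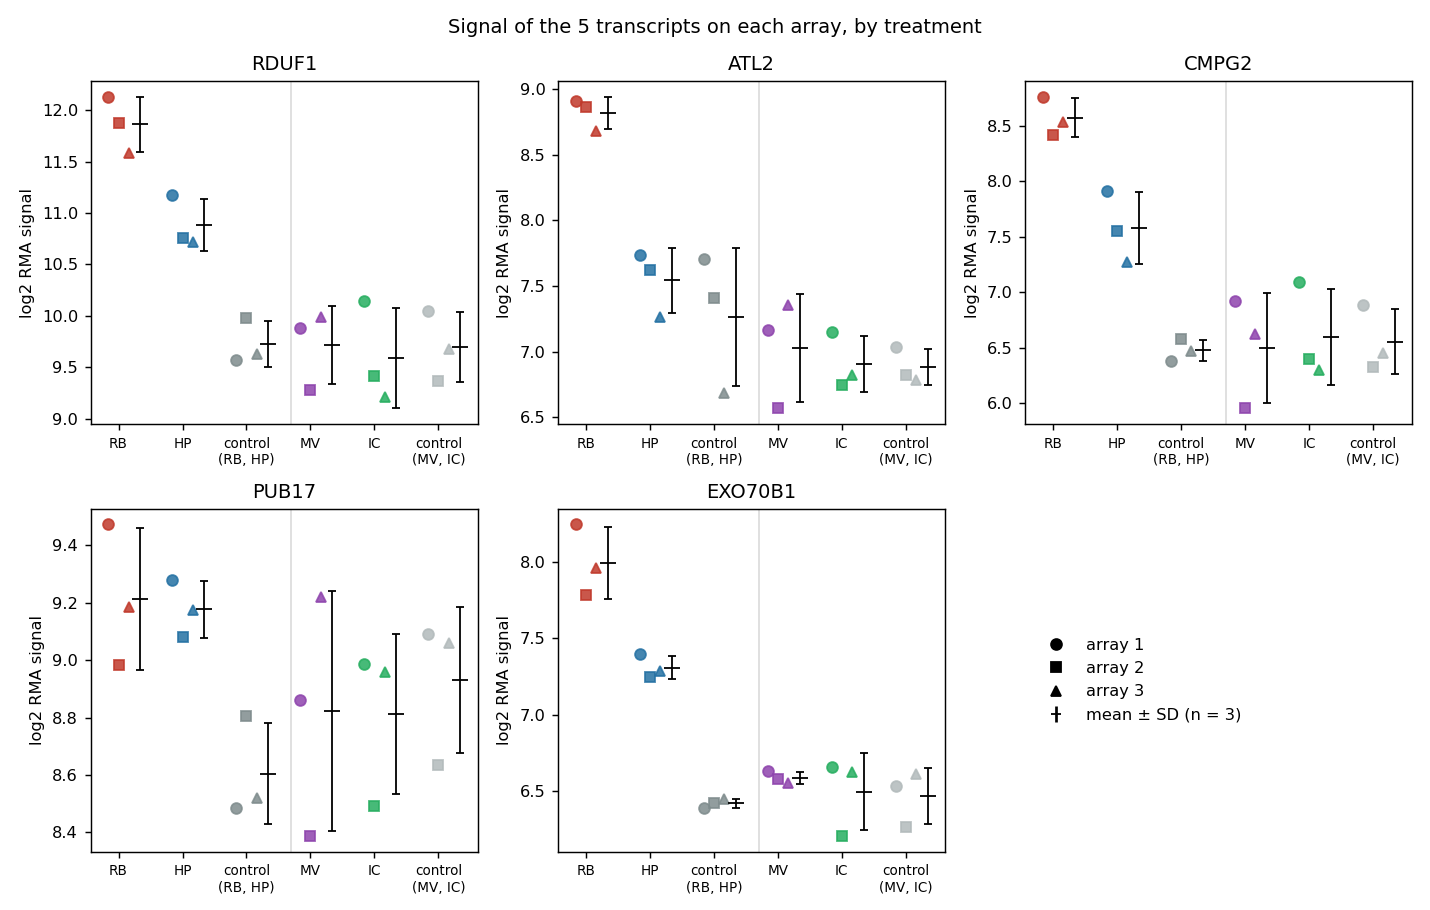
Log2 RMA signal of each transcript (y axis, own scale per panel) on the 3 arrays of each group (x axis), with circles, squares and triangles for arrays 1, 2 and 3 and bars for the mean ± SD of 3 arrays. RB arrays are the highest for RDUF1, ATL2, CMPG2 and EXO70B1, HP arrays lie between RB and control for RDUF1, CMPG2 and EXO70B1, and the MV, IC and MV/IC control arrays overlap.

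Over the 5 transcripts, 4 rose after RB by the test without the block, where 1.44% of all probe sets were called higher, and all 5 with it, where 3.56% were. All 5 had every RB array above every control array, as did 7.41% of all probe sets. After HP, RDUF1 and EXO70B1 rose (0.629% of all probe sets called higher), joined by CMPG2 with the block (1.77%), and all but ATL2 had every HP array above every control array (6.01% of all probe sets). ATL2, CMPG2 and EXO70B1 were called higher in RB than in HP (0.853% of all probe sets), joined by RDUF1 with the block (2.29%), and these 4 had every RB array above every HP array (11.7% of all probe sets). The median log2 difference over all probe sets was 0.02 for RB, -0.02 for HP and 0.05 for RB against HP.

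The transcripts fell into 3 patterns by these values. ATL2 was high in RB with HP arrays that overlapped the control. RDUF1, CMPG2 and EXO70B1 were high in RB and intermediate in HP. PUB17 had nearly the same difference from the control after RB as after HP. RDUF1 and CMPG2 were the closest pair over the 4 differences of treated from control arrays (root mean square difference 0.0915 on the log2 scale), and RDUF1 and PUB17 the most distant (0.821). EXO70B1 lay about as near to ATL2 (0.308) as to RDUF1 (0.320) and CMPG2 (0.290). The patterns are thus a description, and differences between the transcripts were not tested.

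The effects of the other photosensitizers were set against that of RB at the same dose of 0.5 μM. An equal dose is not an equal amount of singlet oxygen, since the study gives lower yields for MV and IC than for RB. The study also found that MV and IC did not reach the inside of chloroplasts, and it could not separate location from yield. RDUF1 was 9.88, 9.28 and 9.99 on MV1, MV2 and MV3 and 10.14, 9.42 and 9.21 on IC1, IC2 and IC3, against 10.04, 9.37 and 9.67 on the MV/IC control 1, 2 and 3. ATL2 was 7.16, 6.57 and 7.35 on the MV arrays and 7.15, 6.74 and 6.82 on the IC arrays, against 7.03, 6.82 and 6.78 on the control. CMPG2 was 6.92, 5.95 and 6.63 on the MV arrays and 7.09, 6.40 and 6.30 on the IC arrays, against 6.89, 6.33 and 6.45 on the control. For these 3 transcripts the treated arrays lay on both sides of the control arrays. PUB17 was 8.86, 8.39 and 9.22 on the MV arrays and 8.99, 8.49 and 8.96 on the IC arrays, against 9.09, 8.64 and 9.06 on the control. EXO70B1 was 6.63, 6.57 and 6.55 on the MV arrays and 6.65, 6.20 and 6.62 on the IC arrays, against 6.53, 6.26 and 6.61 on the control. Groups overlapped for these transcripts as well.

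The log2 differences from the control ranged from -0.11 in PUB17 to 0.15 in ATL2 after MV and from -0.12 in PUB17 to 0.04 in CMPG2 after IC. None of the 5 was called in MV, in IC or in MV against IC. In each of these comparisons 0% of the 22746 probe sets were called by limma, and at an unadjusted p under 0.05 there were 758, 374 and 448 probe sets, none of them one of the 5. The intervals bound what these arrays could show. After MV they reached 0.57 for RDUF1, 0.66 for ATL2, 0.48 for CMPG2, 0.33 for PUB17 and 0.42 for EXO70B1 at the upper end, and after IC 0.44, 0.53, 0.58, 0.32 and 0.33 in the same order. The 3 pairs of dyes were each tested over all probe sets, and MV differed from IC by -0.10 in CMPG2 to 0.13 in RDUF1.

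As a difference of differences, each dye against its own control, RDUF1 rose by 2.12 more with RB than with MV (95% interval 1.34 to 2.89, adjusted p = 0.0148) and by 2.24 more than with IC (1.47 to 3.02, adjusted p = 0.00845). CMPG2 rose by 2.15 more with RB than with MV (1.39 to 2.91, adjusted p = 0.0118) and by 2.05 more than with IC (1.29 to 2.81, adjusted p = 0.0142). EXO70B1 rose by 1.46 more with RB than with MV (adjusted p = 0.00514) and by 1.55 more than with IC (adjusted p = 0.00274). Without control 1 of the MV/IC set, RDUF1 no longer passed against MV (1.94, adjusted p = 0.0528) nor CMPG2 against IC (1.88, adjusted p = 0.05003). ATL2 differed by 1.41 from MV (0.69 to 2.13, adjusted p = 0.12, and 0.0124 with the block) and by 1.53 from IC (0.81 to 2.25, adjusted p = 0.0552, and 0.00529 with the block). PUB17 differed by 0.72 from MV (adjusted p = 0.459) and by 0.73 from IC (adjusted p = 0.381). Called higher were 3 of the 5 against MV, where 0.299% of all probe sets were, and 3 against IC, where 0.374% were. With the block 4 were called against MV (0.95% of all probe sets) and 4 against IC (1.39%). These differences contain the RB arrays on which the study chose RDUF1, ATL2, CMPG2 and EXO70B1 as markers, so they are no independent evidence either.

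**Figure D2:**
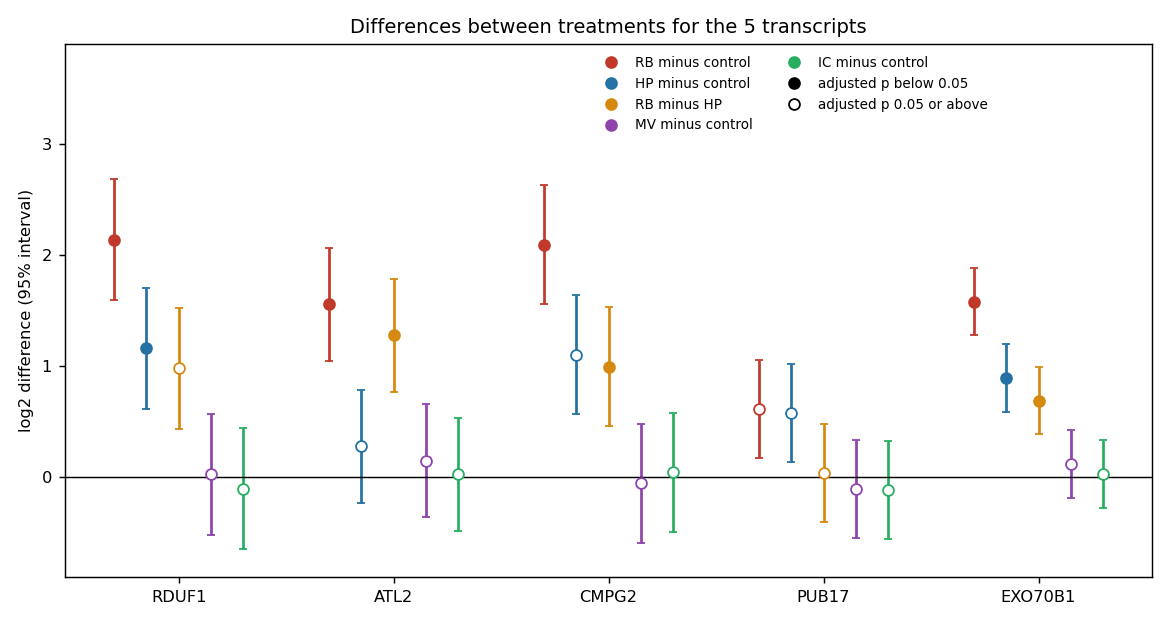
Log2 difference with its 95% interval (y axis) for each transcript (x axis) in 5 comparisons of 3 against 3 arrays, filled where the adjusted p of the fit without the block is under 0.05. RB differences are between 1.55 and 2.14 except in PUB17, and the MV and IC differences lie around 0.

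The control groups differed from each other in 7.47% of all probe sets, but in none of the 5 transcripts. The control of RB and HP minus that of MV and IC was 0.03 for RDUF1, 0.38 for ATL2, -0.08 for CMPG2, -0.33 for PUB17 and -0.05 for EXO70B1, with overlapping arrays in each case. ATL2 was the exception when control 3 of RB and HP, the array where it was lowest, was left out (0.68, adjusted p = 0.0451). The order of the group means began with RB and then HP for all 5 transcripts. RB and HP overlapped for PUB17 alone. HP overlapped the next group in the order for ATL2 (the control of RB and HP) and for PUB17 (the control of MV and IC). Neighbours in the order of the 4 other groups overlapped for each of the 5 transcripts.

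On some arrays the levels deviated from the group mean in the same direction. On RB1, HP1 and IC1 all 5 transcripts had their highest value of the group, by 0.09 to 0.26 above the group mean on RB1, 0.09 to 0.34 on HP1 and 0.16 to 0.55 on IC1. On MV2 RDUF1, ATL2, CMPG2 and PUB17 had their lowest value, at -0.55 to -0.44 from the group mean, whereas EXO70B1 was at -0.01. The directions were mixed on IC3, with RDUF1 at -0.38 and CMPG2 at -0.29 but PUB17 at 0.15 and EXO70B1 at 0.13. ATL2 parted from the others in the control of RB and HP, where it was at 0.44 from the mean on control 1 and at -0.58 on control 3. The differences between treated and control arrays of the same number subtract the same control array for RB and for HP. RDUF1 was 2.56, 1.90 and 1.96 higher in RB and 1.61, 0.78 and 1.09 higher in HP for numbers 1, 2 and 3. CMPG2 was 2.38, 1.84 and 2.06 higher in RB and 1.53, 0.97 and 0.80 higher in HP. EXO70B1 was 1.86, 1.36 and 1.52 higher in RB and 1.01, 0.82 and 0.84 higher in HP. Number 1 had the largest difference in each of these. ATL2 was 1.21, 1.46 and 1.996 higher in RB and 0.03, 0.21 and 0.58 higher in HP. PUB17 was 0.99, 0.18 and 0.67 higher in RB and 0.79, 0.27 and 0.66 higher in HP.

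**Figure D3:**
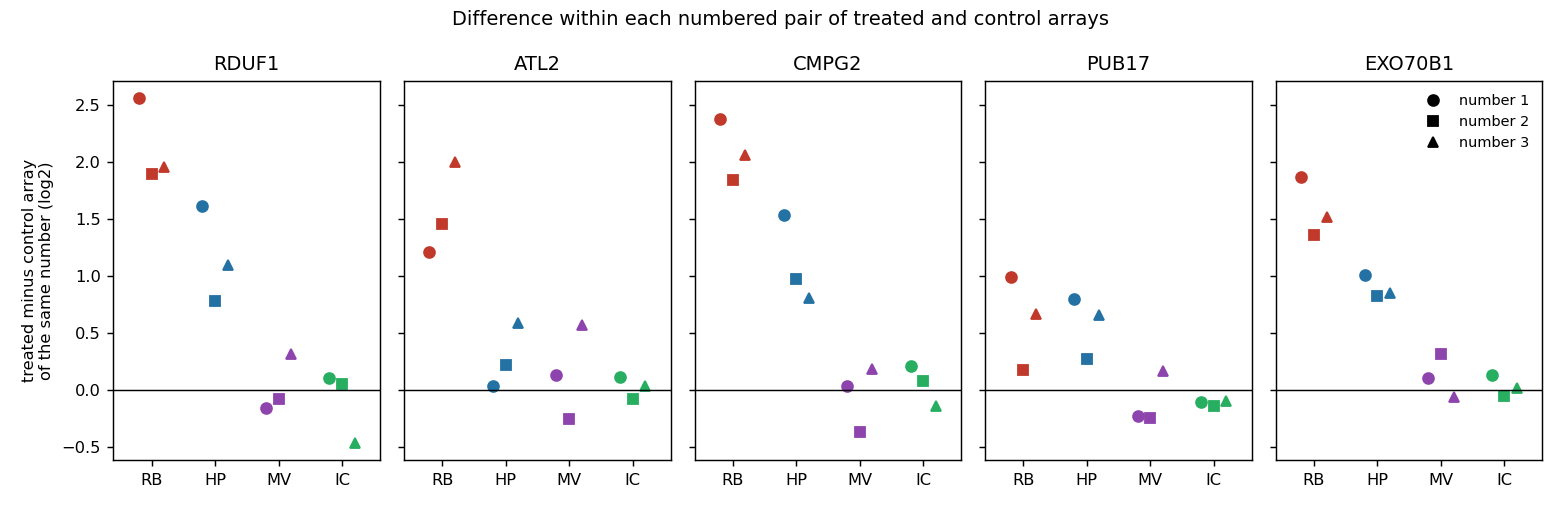
Log2 difference between the treated and the control array of the same number (y axis) under RB, HP, MV and IC (x axis), 1 panel per transcript, with circles, squares and triangles for numbers 1, 2 and 3. All differences are above 0 under RB and HP, and those under MV and IC fall on both sides of 0, except PUB17 under IC, where all 3 are below 0.

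Near relatives and known partners of the 5 transcripts formed a list of which 11 had a named probe set. Of these, 6 rose after RB, 0 fell and 5 did not pass, with a median log2 difference of 1.35. With the block 8 rose and 1, FLS2, fell. Of all probe sets, 1.44% rose without the block and 3.56% with it. RDUF2, CMPG1, ATL31, ATL6, PUB12 and FLS2 were named only through the study's tables of changed transcripts, so they were in view because they changed. Among the 5 that the platform annotation names, 1 rose, or 3 with the block. After HP 1 of the 11 rose, or 3 with the block, against 0.629% and 1.77% of all probe sets. In RB 3 were higher than in HP, or 4 with the block, against 0.853% and 2.29% of all probe sets, and FLS2 was lower with the block.

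RDUF2, which shares the RING and unknown domains of RDUF1, had 9.78, 9.93 and 9.95 in RB from the lowest to the highest array and 8.36, 8.42 and 8.70 in HP, against 7.68, 7.97 and 8.53 in the control. The RB arrays were apart from both, whereas HP and control overlapped. RDUF2 rose by 1.83 after RB (standard error 0.246, adjusted p = 0.000562) and stood at 0.43 after HP (adjusted p = 0.476), 1.39 higher in RB than in HP (adjusted p = 0.00513). RDUF1 stood at 1.16 after HP, and the difference between the transcripts was not tested.

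CMPG1, a close relative of CMPG2, had 8.86, 9.19 and 9.40 in RB and 8.05, 8.37 and 8.70 in HP, against 6.68, 7.18 and 7.67 in the control. No group overlapped another. It rose by 1.98 after RB (standard error 0.369, adjusted p = 0.00704) and stood at 1.20 after HP (adjusted p = 0.183, and 0.0357 with the block). RB exceeded HP by 0.78 (adjusted p = 0.381).

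ATL31 and ATL6 are RING-H2 ligases of the carbon and nitrogen response and of defence. ATL31 had 8.66, 9.22 and 9.29 in RB and 7.61, 8.31 and 8.68 in HP, against 5.92, 6.84 and 7.36 in the control. It rose by 2.35 after RB (adjusted p = 0.0056), and the 1.49 after HP passed only with the block (adjusted p = 0.146, and 0.00505 with the block). ATL6 rose by 1.35 after RB (adjusted p = 0.0435) and stood at 1.12 after HP (adjusted p = 0.178), and RB exceeded HP by 0.23 (adjusted p = 0.846). Unlike in ATL2, HP arrays lay above the control arrays in both.

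PUB22, PUB23 and PUB24 are U-box ligases that together dampen immune signalling, with the exocyst subunit EXO70B2 as a known target of PUB22. PUB24 had 7.66, 7.90 and 8.07 in RB and 5.64, 6.34 and 7.08 in HP, against 5.04, 6.03 and 6.31 in the control. It rose by 2.08 after RB (standard error 0.349, adjusted p = 0.00329) and was 1.52 higher in RB than in HP (adjusted p = 0.0258), while HP arrays overlapped the control. PUB22 stood at 1.37 (adjusted p = 0.0804, and 0.00143 with the block) and PUB23 at 1.05 (adjusted p = 0.0648, and 0.0105 with the block) after RB. The difference of RB from HP was 1.05 for PUB22 (adjusted p = 0.223, and 0.00764 with the block). PUB22 and PUB23 were also higher in the control of RB and HP than in that of MV and IC, by 1.40 and 1.13 (adjusted p = 0.0445 and 0.0292), unlike the 5 transcripts.

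PUB12, which targets the flagellin receptor FLS2, rose by 0.78 after RB (adjusted p = 0.0359) and by 1.05 after HP (adjusted p = 0.013), at signals of at most 5.33. FLS2 stood at -1.02 after RB (adjusted p = 0.352, and 0.0101 with the block) and at 0.52 after HP (adjusted p = 0.685), and the difference of RB from HP was -1.54 (adjusted p = 0.130, and 0.000712 with the block). Its RB arrays were 5.95, 6.04 and 7.64 and its HP arrays 7.36, 8.15 and 8.76, against 7.28, 7.40 and 8.01 in the control, so 1 RB array lay within the control range. PUB19, a ligase of drought responses, stood at 0.54 after RB (adjusted p = 0.0769) and was 0.87 higher in RB than in HP (adjusted p = 0.00529). It stood at -0.33 after HP (adjusted p = 0.392), and its signals were at most 4.62, below the median of every array. TN2, the guard of EXO70B1, stood at 0.06 after RB and -0.03 after HP, with signals of 2.77 to 3.18 near the low end of the scale.

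Of 14 U-box ligases with a named probe set, CMPG2 and PUB17 included, 5 rose after RB, 0 fell and 9 did not pass, with a median of 0.81. With the block 9 rose. The shares of all probe sets that rose were 1.44% without the block and 3.56% with it. Among the 9 named by the platform annotation, 1 rose after RB, 4 with the block, with a median of 0.64. The 4 with the largest differences were CMPG2, PUB24, CMPG1 and PUB29, which rose by 1.60 after RB (adjusted p = 4.12e-05) and by 0.85 after HP (adjusted p = 0.0118). PUB29 was also lower in the control of RB and HP than in that of MV and IC (log2 difference -0.77, adjusted p = 0.01002). It had 6.31, 6.39 and 6.41 in HP, against 5.16, 5.56 and 5.85 in its control, while the control of MV and IC had 6.16, 6.30 and 6.41. The part of the low control in the HP difference was not tested. After HP 2 of the 14 rose (PUB12 and PUB29) and 4 with the block, against 0.629% and 1.77% of all probe sets. The same family had 0 calls in MV and in IC, with medians of -0.03 and 0.10.

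Of 7 ATL ligases, ATL2, ATL31 and ATL6 rose after RB, the 3 that only the study's tables name, and the 4 that the platform annotation names did not pass, at -0.30 to 0.03. After HP 0 of the 7 passed. With the block ATL31 was higher and ATL8, picked here after its value was seen, was lower after HP (log2 -1.01, adjusted p = 0.147, and 0.0235 with the block). The ATL list had a median of 0.03 after RB. Of the 4 named by the platform annotation, all but ATL8 had signals of at most 4.68, below the median of every array. Their lack of calls therefore says little about the family.

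EXO70D3, the only other EXO70 transcript with a named probe set, had 7.01, 7.08 and 7.42 in RB and 6.77, 6.82 and 7.01 in HP, against 6.41, 6.56 and 6.70 in the control. It rose by 0.61 after RB (adjusted p = 0.0423) and stood at 0.31 after HP (adjusted p = 0.42). None of the 7 other exocyst transcripts with a named probe set passed in RB or HP, with or without the block. Their differences ran from -0.21 to 0.50 after RB and from -0.11 to 0.85 after HP. SEC6, a core subunit, had the largest of these, at 7.03, 7.05 and 7.38 in HP against 5.55, 6.15 and 7.22 in the control (adjusted p = 0.272). In the control of MV and IC it had 7.30, 7.31 and 7.38. The part of the low control in the HP difference of SEC6 was not tested. The 95% interval of EXO70B1 after RB, 1.28 to 1.88, lay above the differences of all 7 after RB, and the difference between subunits was not tested.

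Upstream of the ligases, 13 transcripts of ubiquitin and conjugating enzymes had a named probe set. UBC20, an E2 of the cell cycle, fell to 8.26, 8.44 and 8.53 in RB, against 8.94, 9.01 and 9.19 in the control (log2 -0.64, adjusted p = 0.0386), and the other 12 did not pass after RB. After HP 0 of the 13 passed. With the block UBQ3, a polyubiquitin gene picked here after its value was seen, was 0.86 higher after HP (adjusted p = 0.139, and 0.0416 with the block). RPN12a was the only named proteasome subunit, at -0.26 after RB (adjusted p = 0.361) and -0.18 after HP (adjusted p = 0.574).

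**Figure D4:**
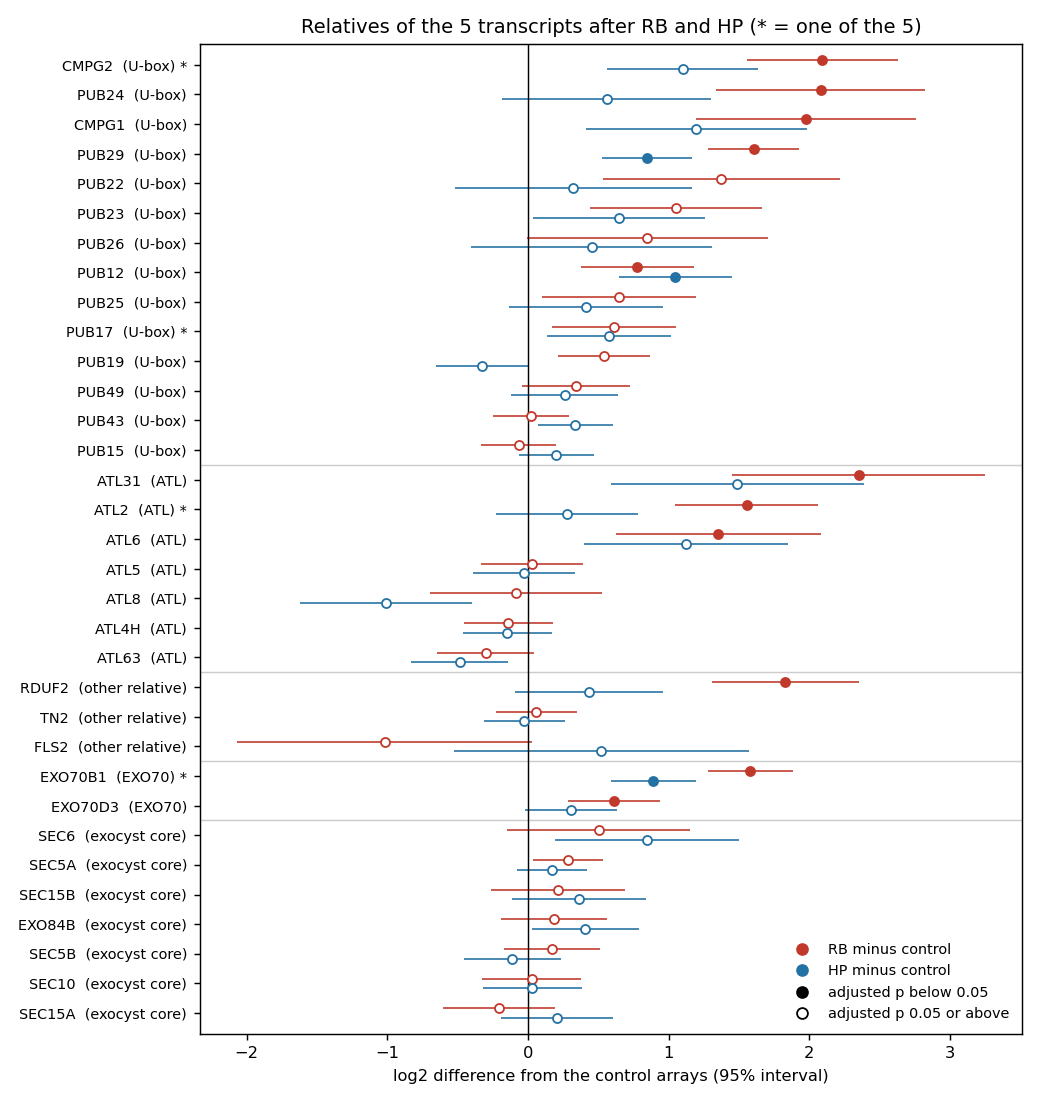
Log2 difference from the control arrays with its 95% interval (x axis) after RB and after HP for U-box and ATL ligases, other relatives and partners, EXO70 and the exocyst core (y axis), filled where the adjusted p without the block is under 0.05. CMPG2, PUB24, CMPG1 and PUB29 lead the U-box ligases after RB, and no exocyst core subunit is filled.

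The transcripts most like each of the 5 were looked for among 2384 others with a symbol, by the root mean square difference over the 4 differences of treated from control groups, 12 treated and 6 control arrays. For RDUF1 these were CMPG2 (0.0915), the mitochondrial carrier UCP5 (0.145) and the chaperone adaptor Hop3 (0.148), the last at 1.89 after RB and 1.09 after HP. For CMPG2 they were RDUF1, CMPG1 (0.122) and UCP5 (0.138). ATL2 was nearest to the zinc finger repressor STZ (0.110), the transcription factor WRKY70 (0.126) and the response regulator ARR7 (0.132), which stood at 0.23, 0.10 and 0.49 after HP. EXO70B1 was nearest to PDX1.2 (0.0483), a protein of vitamin B6 synthesis, to PUB29 (0.0578) and to the zinc finger protein SZF1 (0.0956). PUB17 was nearest to the phosphatase SLP2 (0.0174), the RNA helicase RH20 (0.0272) and the actin regulator CAP1 (0.0568). Of the nearest transcripts, only Hop3, STZ and RH20 were named by the platform annotation. The rest were in the pool only through the study's tables of changed transcripts. In this pool such likeness was rarer for the others, since 301 transcripts lay within 0.25 of PUB17 and 14 to 26 within 0.25 of the 4 others. PUB17 also had the smallest difference after RB.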

How the data were processed

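Total RNA from ACSC of 6 groups was hybridized to 18 ATH1 arrays, 3 biological replicates per group, and no count or reading depth applies, so the number of arrays limits the precision. The deposited values are log2 signals of 22810 probe sets, made by the authors with RMA, that is, background correction, quantile normalization and summary over probes. Tools named in the submitters' processing notes are affy and RMA, and versions are not given in the sources used here, nor whether all arrays were normalized in 1 run. The 5 transcripts, the gene lists and the rule for naming genes were chosen with earlier results of these data known. By that rule the text names the 5, every relative or partner with a named probe set, up to 4 genes of each other list and the 3 transcripts most like each of the 5.

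One model of the 6 groups (12 residual degrees of freedom) was fitted by limma 3.58.1 under R 4.3.3, with lmFit, contrasts.fit and eBayes, to the 22746 probe sets that remained after the 64 control probe sets were left out. Benjamini–Hochberg adjustment ran over all 22746. The median 95% interval of a treatment against its control reached 0.392 to either side. The fit was tested on simulated data with independent noise on every array. Such data lack the correlation between arrays of the same number given below, so they cannot decide between the fits with and without the block. Titles of the control arrays pair them by number with the treated arrays. Deviations from the group means of arrays with the same number correlated over all probe sets with a mean of 0.218 between RB and control (lowest 0.000948), 0.563 between HP and control (lowest 0.483), 0.388 between RB and HP (lowest 0.231), 0.161 between MV and control (lowest -0.333), 0.389 between MV and IC (lowest 0.158), and 0.427 between IC and control (lowest 0.216). As the methods name none, the model had no block. A model blocked on the array number in each set (8 residual degrees of freedom) is quoted for the 5 transcripts where a call changed, and for the gene lists as counts. Without the block 673 probe sets were called after RB and 185 after HP, and with it 1649 and 539. The blocked counts lie nearer to the numbers of changed transcripts that the study reports.

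Of the probe sets, 14016 were named by the platform annotation and 899 more through the loci in the study's tables. All 5 transcripts were among the 899 and were found by locus. Symbols were matched through RefSeq. No promoter or protein sequence was used here. Alternatives were the block, a fit of only the arrays compared, renewed quantile normalization, subtraction of array medians, a filter at a mean of 6, a trended robust prior, array weights, control probe sets kept, the other control and leaving out each array. Plots used matplotlib 3.10.9 under Python 3.11.15.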

Additional observations from a re-analysis of the deposited data

Results flagged for a closer look

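The difference between the effects of RB and of another dye at the same dose was itself past the threshold of the limma test for 3 of the 5 transcripts, each dye against its own control of 3 arrays. RDUF1 rose by 2.12 more with RB than with MV and by 2.24 more than with IC. CMPG2 rose by 2.15 more than with MV and by 2.05 more than with IC. EXO70B1 rose by 1.46 more than with MV and by 1.55 more than with IC. RB and the other dyes were run with separate control cultures, and 1698 probe sets differed between those controls, although none of these 3 transcripts did. The part of the sets in these differences was not tested. The study chose these 3 transcripts as markers on the same RB arrays, so the differences are no independent evidence for them. The dyes were matched by dose and not by their yield of singlet oxygen.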

How the results depend on the processing

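The rises of RDUF1, CMPG2 and EXO70B1 after RB kept their direction and passed the threshold under all 15 alternatives, with log2 differences of 2.01 to 2.28, 1.99 to 2.17 and 1.45 to 1.69. That of ATL2 (1.26 to 1.94) passed under 14 of 15. PUB17 ranged from 0.28, against the control of MV and IC, to 0.73, and passed only with the replicate block (0.61). The replicate block ended no call on the 5 transcripts. It could not be used between the control groups, whose sets share no number. Of the 5 transcripts, 2 were called after HP. Without 1 array the count was 1 to 3. It was 0 with only the arrays compared and 1 with renewed quantile normalization, with array medians subtracted and with array weights. The 3 called in RB against HP became 1 with only the arrays compared, and 0 to 3 without 1 array. Calls between the control groups numbered 0 to 1 without 1 array. RDUF1 after HP lost its call under 9 of 15 alternatives. The fit of only the arrays compared has fewer degrees of freedom. For the other lost calls the cause was not tested.

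Signs turned among small differences that did not pass. Without 1 array, ATL2 after HP ranged from -0.015 to 0.50 and PUB17 in RB against HP from -0.094 to 0.15. After MV, RDUF1 ranged from -0.14 to 0.24, ATL2 from -0.016 to 0.38, CMPG2 from -0.26 to 0.22 and PUB17 from -0.31 to 0.11. After IC, RDUF1 ranged from -0.38 to 0.085, ATL2 from -0.099 to 0.10, CMPG2 from -0.20 to 0.21, PUB17 from -0.26 to 0.043 and EXO70B1 from -0.077 to 0.17. In MV against IC, RDUF1 ranged from -0.063 to 0.40, ATL2 from -0.039 to 0.36, CMPG2 from -0.31 to 0.17, PUB17 from -0.19 to 0.23 and EXO70B1 from -0.054 to 0.17. Between the controls, RDUF1 ranged from -0.13 to 0.20, CMPG2 from -0.19 to 0.088 and EXO70B1 from -0.15 to 0.023. With array weights, RDUF1 after MV was -0.15 and between the controls -0.024, ATL2 after IC was -0.045, CMPG2 -0.10 and EXO70B1 -0.050, and PUB17 in MV against IC was -0.043. Against the control of RB and HP, RDUF1 after MV was -0.0065, ATL2 -0.24, CMPG2 0.022 and PUB17 0.22, and after IC ATL2 was -0.36 and PUB17 0.21. With renewed quantile normalization, CMPG2 after MV was 0.0095 and between the controls 0.074, and EXO70B1 between the controls 0.10. With array medians subtracted, these were 0.014 and 0.042 between the controls, and PUB17 in MV against IC was -0.011.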

Other observations

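Among the relatives and partners, RDUF2 followed RDUF1 in its difference from the other dyes. It rose by 1.91 more with RB than with MV (adjusted p = 0.023) and by 2.01 more than with IC (adjusted p = 0.0136). PUB24 rose by 2.46 more with RB than with MV (adjusted p = 0.0445), and its 2.23 against IC passed with the block only (adjusted p = 0.0566, and 0.000907 with the block). CMPG1 and ATL31 passed against both dyes with the block only. CMPG1 stood at 2.16 against MV (adjusted p = 0.121, and 0.0134 with the block) and 1.79 against IC (adjusted p = 0.174, and 0.0274 with the block). ATL31 stood at 2.099 against MV (adjusted p = 0.216, and 0.00856 with the block) and 2.41 against IC (adjusted p = 0.0954, and 0.00244 with the block). None of the 11 relatives was called after MV or after IC.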
